A study of Mus musculus with 12 samples.

Results

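RNA polymerase III (Pol III) was mapped on its genes in mouse liver by chromatin immunoprecipitation with sequencing (ChIP-seq), with one antibody against its subunit RPC1 and another against its subunit RPC4. The 2 RPC1 libraries and the 2 RPC4 libraries, 4 of the 12 libraries of the series, were compared with each other over all 532 stretches of genome that the 12 coverage files share. They were chosen by the antibody target in their labels. The 2 input libraries (chromatin without immunoprecipitation) are given beside them for comparison and entered none of the main fits. All groups came from livers of male C57/BL6 mice of 12 to 14 weeks, kept in a cycle of 12 h light and fed from Zeitgeber time (ZT) 12 to ZT24 for 7 days. Livers of 5 mice were taken at ZT2 and of 5 at ZT26 as the biological replicate. Which replicate number stands for which time, and whether livers were pooled, is not stated, so p-values measure only the spread between these libraries. Both antibodies were raised in the authors' laboratory against peptides from the C-terminal end of their subunit. With 1 antibody per subunit, a difference between subunits and a difference between antibodies cannot be told apart.

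Pol III makes short untranslated RNAs, among them the tRNAs, 5S rRNA, U6 and 7SK. RPC1 is its largest subunit and holds much of the active centre. RPC4 belongs to a small subcomplex that its yeast counterpart uses in termination and reinitiation. In tRNA genes the promoter lies inside the transcribed region: an A box near the gene start and a B box near the gene end are bound by the factor TFIIIC, which places TFIIIB just upstream of the start. In type 3 genes such as 7SK and U6 the promoter lies upstream instead, and transcription ends at a run of T after the gene in either case. The spread of a subunit along such short genes is blurred by fragments of about 250 bp, which are longer than most of the genes.

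The genes below are shown because the position of the 2 subunits was compared along them. The first 3 are among the single tRNA genes with the largest significant shifts of the coverage maximum. The next 4 have the highest coverage among tRNA genes of up to 78 bp and of 79 to 100 bp. Each sequence runs from the first base of the gene to 20 bases after its last base, 5′ to 3′ on the transcribed strand, from the mm9 genome. Capitals mark bases 8 to 18, where the A box lies, then the 11 bases from 22 to 12 bases before the gene end, where the B box lies, and the first run of at least 4 T after the gene.
tRNA-Pro (AGG), chr6:29338824-29338915, plus strand: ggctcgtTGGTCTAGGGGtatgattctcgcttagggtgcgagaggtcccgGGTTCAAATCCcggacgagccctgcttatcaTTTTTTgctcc
tRNA-Ser (AGA), chr13:22032763-22032864, minus strand: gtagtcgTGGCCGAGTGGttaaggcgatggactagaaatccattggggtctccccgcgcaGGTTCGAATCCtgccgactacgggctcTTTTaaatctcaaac
tRNA-Arg (CCT), chr17:23685715-23685807, minus strand: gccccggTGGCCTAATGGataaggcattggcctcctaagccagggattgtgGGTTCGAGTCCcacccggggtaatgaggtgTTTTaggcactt
tRNA-Ala (AGC), chr5:31190888-31190980, plus strand: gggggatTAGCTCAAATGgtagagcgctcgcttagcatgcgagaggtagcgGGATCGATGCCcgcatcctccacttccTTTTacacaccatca
tRNA-His (GTG), chr2:122203704-122203795, plus strand: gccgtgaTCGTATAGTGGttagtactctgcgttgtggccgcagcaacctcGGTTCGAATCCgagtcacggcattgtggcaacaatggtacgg
tRNA-Ser (GCT), chr2:118872466-118872567, minus strand: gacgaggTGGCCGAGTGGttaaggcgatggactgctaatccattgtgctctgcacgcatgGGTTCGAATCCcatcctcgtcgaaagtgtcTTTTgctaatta
tRNA-Leu (AAG), chr14:51683558-51683659, plus strand: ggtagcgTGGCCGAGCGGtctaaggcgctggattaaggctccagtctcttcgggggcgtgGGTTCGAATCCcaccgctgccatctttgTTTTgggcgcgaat

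The box positions were taken from the tRNA fold, not from a motif. Searched on both strands with N for any base, the A box letters TGGCNNAG occurred in 30.5% of the 532 stretches and in 34.6% of the 205 stretches with a single tRNA gene and a mean coverage of at least 5. The B box letters GTTCGANTC occurred in 30.1% and 47.8% of the same sets. A gene without these exact letters can still have both boxes.

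Each stretch is a space with 150 bp on both sides. The space held 1 or several genes in most stretches and is called the gene in what follows, with its coordinates. No gene was identified in 69 of the 532 stretches. The space was up to 78 bp long in 326 stretches (stretch of up to 378 bp, 8 with no identified gene), 79 to 100 bp in 55 (379 to 400 bp), and longer in 151 (above 400 bp, 61 with no identified gene). Positions were compared in the 334 stretches with a mean coverage of at least 5 reads per base over the 4 libraries, and in a direction along the gene in the 277 of them whose strand was known, 164, 39 and 74 by class. The RPC1 libraries held 115660 and 82276 read equivalents of 76 bp over the stretches, the RPC4 libraries 151907 and 160705, and the input libraries 3563 and 3365. A median stretch among the 334 held 201.0 and 144.0 read equivalents in RPC1, 278.0 and 318.0 in RPC4, and 5.99 and 5.73 in input. PCR reads without molecular identifiers are not independent molecules, so these depths overstate the precision.

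RPC1 coverage lay further toward the start of the gene than RPC4 coverage. On the mean profile of the 164 tRNA genes of up to 78 bp (median length 72 bp), RPC1 was highest at bases 13 and 9 of the gene in replicates 1 and 2, and RPC4 at bases 47 and 56. The middle of the A box lies at base 13 and that of the B box, for the median gene, at base 56. Coverage was above 0.5 times its maximum from base -93 to base 133 and from base -89 to base 123 in RPC1, and from base -64 to base 148 and from base -45 to base 169 in RPC4. The widths at that height were 227 and 213 bp in RPC1 and 213 and 215 bp in RPC4, so the profiles were displaced at nearly equal widths. On the mean profile of the 39 tRNA genes of 79 to 100 bp (median length 83 bp), the maxima were closer together. They lay at bases 33 and 41 in RPC1 and at bases 49 and 43 in RPC4.

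**Figure D1:**
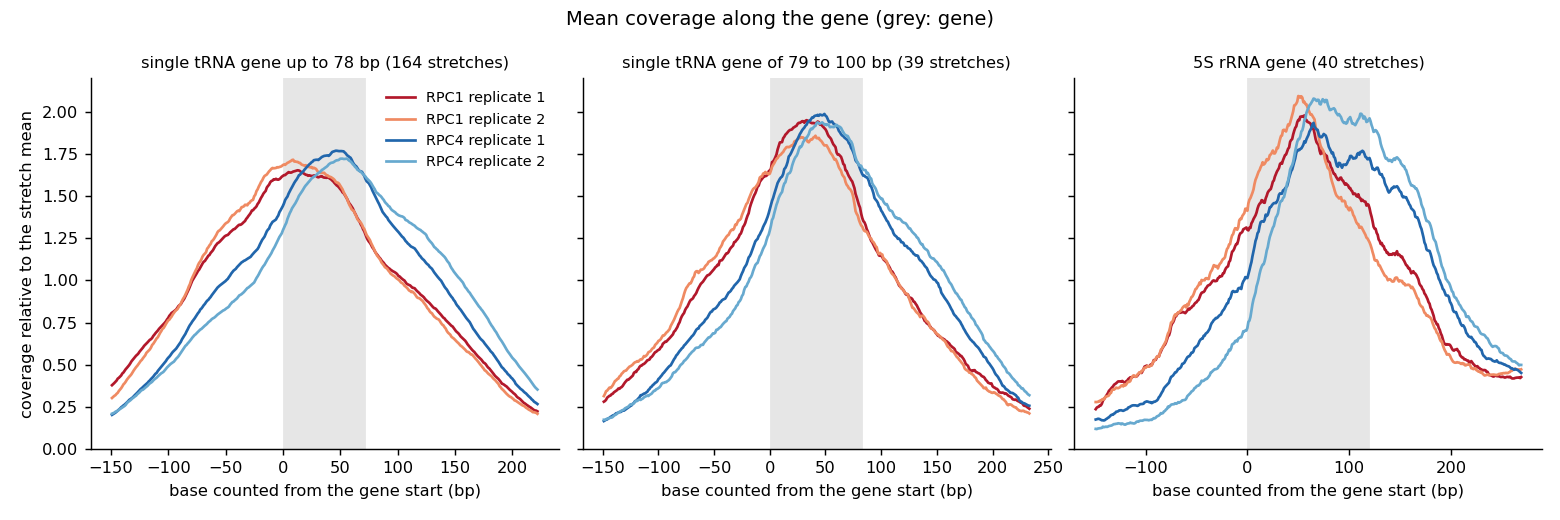
Mean coverage along single tRNA genes of up to 78 bp (164 stretches), of 79 to 100 bp (39 stretches) and 5S rRNA genes of 119 bp (40 stretches), each stretch divided by its own mean; the x axis counts bases from the gene start and the grey band is the gene. In the first panel the RPC1 curves are highest at bases 13 and 9 and the RPC4 curves at bases 47 and 56. In the second panel the RPC1 curves are highest at bases 33 and 41 and the RPC4 curves at bases 49 and 43.

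The 150 bp upstream of the gene held relatively more RPC1 than RPC4. The measure was the log2 ratio of mean coverage in the flank to mean coverage in the gene, with 0.5 added to both. Its median over the 277 stretches was -0.77 and -0.75 in the RPC1 libraries and -1.31 and -1.44 in the RPC4 libraries. Both RPC1 medians were above both RPC4 medians, and the difference of 0.61 compared with a spread between replicates of 0.07 (SD). Limma called 173 of 277 stretches higher in RPC1 (62.5%) and 0 lower (0 also at an unadjusted p under 0.05), at adjusted p under 0.05. Without regard to the test, both RPC1 values were above both RPC4 values in 239 stretches (86.3%) and below both in 3 (1.08%). All stretches share the same 4 libraries, so these counts are not independent of each other. An exact permutation test over 2 against 2 library medians cannot go below p = 0.333.

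The downstream flank showed the opposite. Its median log2 ratio to the gene was -1.30 and -1.39 in RPC1 and -0.99 and -0.72 in RPC4, a difference of -0.49 with a spread of 0.14 between replicates (SD). Limma called 66 of 277 stretches lower in RPC1 (23.8%) and 0 higher (2 at an unadjusted p under 0.05). Both RPC1 values were below both RPC4 values in 213 stretches (76.9%) and above both in 6 (2.17%). These calls depended on few libraries and genes. A fit without the 50 near-identical 5S rRNA genes, added after the data were seen, called 0 of 227 stretches (84 at an unadjusted p under 0.05, smallest adjusted p 0.0867), and the fits without RPC1 replicate 2 and without RPC4 replicate 2 called 8 and 11. Without RPC4 replicate 1 it called 108. For the upstream flank, 51 stretches were called without RPC1 replicate 1, 53 without RPC1 replicate 2, 93 without RPC4 replicate 1 and 38 without RPC4 replicate 2.

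Both directions occurred in the same genes. The upstream difference was above 0 and the downstream difference below 0 in 258 of 277 stretches (93.1%). Limma called both in 50 stretches and at least one of them in 189. Summed over the 277 stretches, upstream coverage was 0.665 and 0.654 of gene coverage in RPC1 and 0.45 and 0.398 in RPC4. Downstream coverage was 0.395 and 0.365 of gene coverage in RPC1, against 0.499 and 0.6 in RPC4. In input the ratios over all 277 were near 1, at 0.898 and 0.952 upstream and 0.958 and 1.04 downstream. They varied by class, with upstream input ratios of 0.787 and 1.18 in genes of 79 to 100 bp. In genes above 100 bp these were 0.68 and 0.773, against 0.649 and 0.638 in RPC1 and 0.441 and 0.37 in RPC4.

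**Figure D2:**
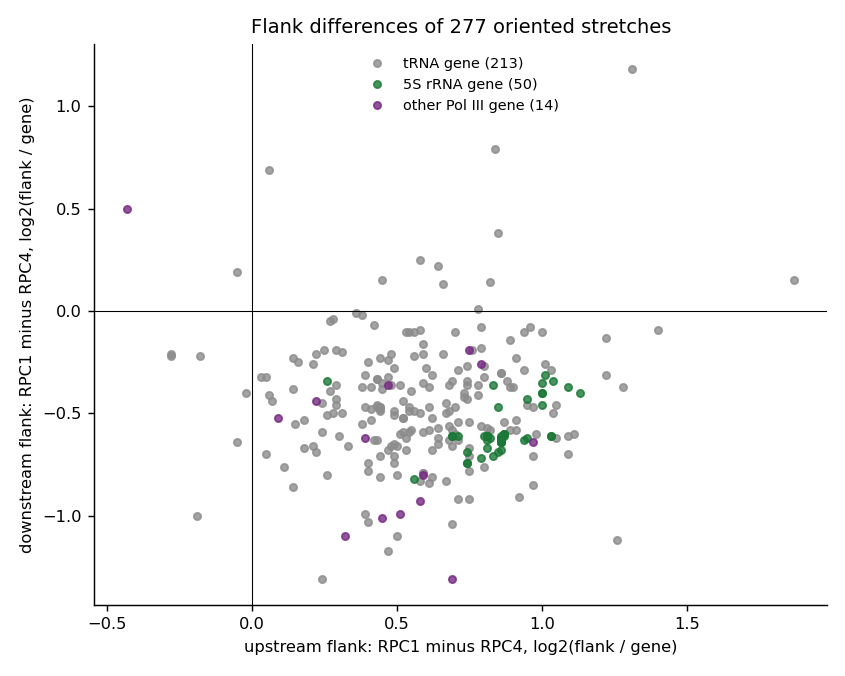
Difference between RPC1 and RPC4 in the log2 ratio of flank to gene coverage, upstream on the x axis and downstream on the y axis, 1 point for each of 277 stretches (213 with tRNA genes, 50 with 5S rRNA genes and the others). The lower right field, where RPC1 is relatively higher upstream and lower downstream, holds 258 of the points.

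The position of the maximum and the centroid (the mean position weighted by coverage) gave the shift in base pairs, counted from the middle of the stretch with negative values upstream. The maximum had a median of -9.5 and -11.5 bp in RPC1 and 8.0 and 19.0 bp in RPC4 over the 277 oriented stretches. It was upstream in both RPC1 libraries relative to both RPC4 libraries in 197 stretches (71.1%) and downstream in 7 (2.53%). Limma, adjusted over all 334 stretches, called 15 of the 277 upstream in RPC1 (5.42%) and 1 downstream (0.361%). The maximum of a single stretch is a noisy measure, and every fit without 1 of the 4 libraries called 0 in either direction, with 49 to 94 stretches upstream at an unadjusted p under 0.05. The centroid, an alternative measure, had medians of -9.7 and -13.0 bp in RPC1 and 10.1 and 20.6 bp in RPC4. Limma called 173 stretches upstream in RPC1 by the centroid (62.5%) and 1 downstream (0.361%), with the same SE of 10 bp for every stretch. The centroid was upstream in RPC1 in 273 of 277 stretches, without overlap of the libraries in 251 (90.6%). The 2 RPC4 libraries differed from each other as well, since the median centroid of replicate 2 lay further downstream than that of replicate 1 in the 3 length classes.

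The 3 length classes had differences in the same direction. In genes of up to 78 bp, the median maximum lay at base 11 and 12.2 of the gene in RPC1 and at base 50.8 and 53.8 in RPC4. It lay before the first base of the gene in 62 and 65 of 164 stretches in RPC1 and in 14 and 5 in RPC4. It lay after the last base in 8 and 7 stretches in RPC1 and in 25 and 43 in RPC4. In tRNA genes of 79 to 100 bp the median maximum was at base 30 and 26.5 in RPC1 and at base 51.0 and 55.0 in RPC4, and it lay before the gene in 9 and 14 of 39 stretches in RPC1 and in 0 and 0 in RPC4.

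The flanks of the shortest genes had median log2 ratios of -0.63 and -0.67 upstream in RPC1, against -1.17 and -1.29 in RPC4. Downstream they were -1.16 and -1.29 in RPC1, against -0.85 and -0.61 in RPC4. In the middle class the upstream medians were -0.92 and -0.78 in RPC1 and -1.47 and -1.62 in RPC4, and the downstream medians -1.30 and -1.42 in RPC1 and -1.03 and -0.83 in RPC4. In neither class did the libraries of the 2 subunits overlap. Limma called 100 of 164 and 23 of 39 upstream flanks higher in RPC1, against 62.5% of all 277. It called 16 of 164 and 7 of 39 downstream flanks lower, against 23.8% of all 277.

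Genes above 100 bp had upstream medians of -1.17 and -1.17 in RPC1 and -1.63 and -2.41 in RPC4, and downstream medians of -1.63 and -1.84 in RPC1 and -1.17 and -1.06 in RPC4. Limma called 50 of 74 upstream flanks higher and 43 of 74 downstream flanks lower in RPC1, against 62.5% and 23.8% of all 277. The 5S rRNA genes make up 50 of these 74 stretches. Without them the upstream and downstream differences of the medians were 0.54 and -0.58 over 24 stretches, and the centroid difference was -26.4 bp. The difference of the median maxima turned to 6.6 bp without them, with a spread of 19.9 bp between replicates, while the median of the differences per stretch was -13.8 bp. The centroid difference between RPC1 and RPC4 medians was -25.3, -28.5 and -29.8 bp from the shortest to the longest class, with spreads of 5.0, 6.1 and 7.1 bp between replicates. Whether the classes differ in shift was not tested.

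**Figure D3:**
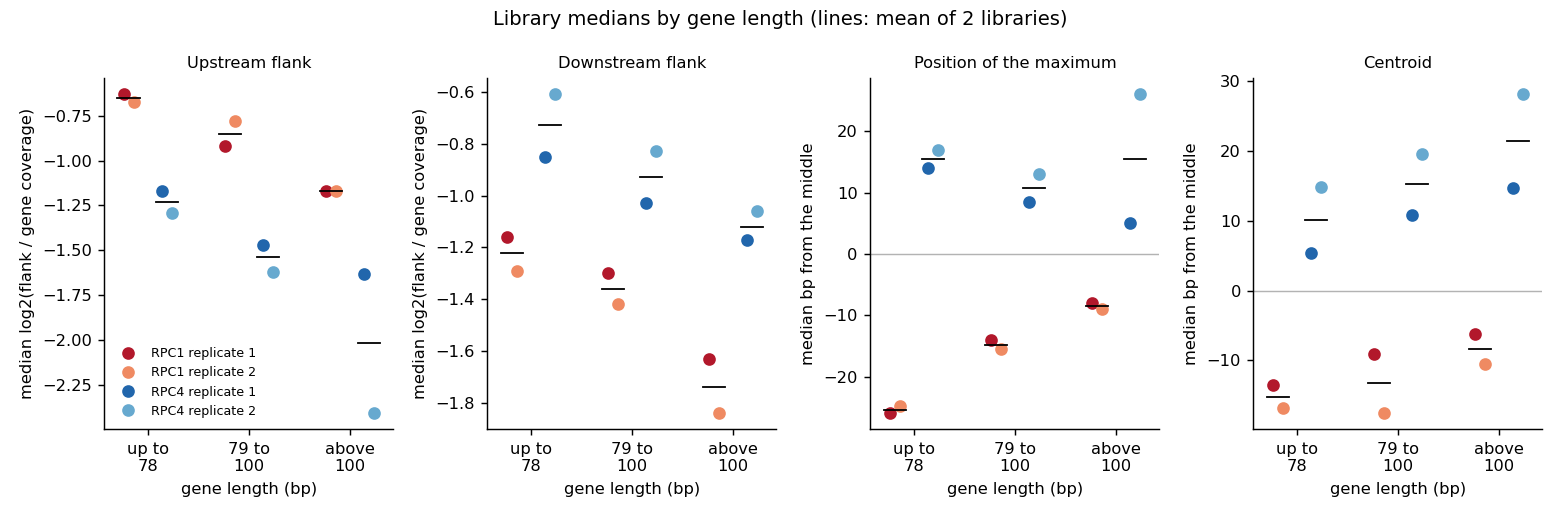
Library medians of the upstream and downstream log2 ratio of flank to gene coverage, of the position of the maximum and of the centroid (bp from the middle, negative upstream), by gene length; points are libraries and lines the mean of 2 libraries. In every panel and class the 2 RPC1 points lie on one side of the 2 RPC4 points, as for the centroid of genes of up to 78 bp at -13.6 and -16.8 bp in RPC1 and 5.4 and 14.8 bp in RPC4.

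The first 3 sequences above are of genes with large called shifts of the maximum. In the tRNA-Pro (AGG) gene on chromosome 6 (29338824 to 29338895, outside annotated protein-coding genes, 356 bp from the start of Opn1sw), the maximum lay at bases -72.0 and -66.0 in RPC1, upstream of the gene. It lay at bases 67.5 and 74.5 in RPC4, at the gene end and the bases just before the T run. The difference was -140.0 bp (SE 6.8, limma adjusted p = 0.0149). Its upstream log2 ratio was 0.57 and 0.90 in RPC1 and -1.22 and -1.05 in RPC4, the largest upstream difference of all (1.87, SE 0.35, adjusted p = 3.4e-06). Its downstream ratios overlapped between the subunits, at -0.07 and -0.34 in RPC1 and -0.81 and 0.09 in RPC4.

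In the tRNA-Arg (CCT) gene on chromosome 17 (23685735 to 23685807, outside annotated protein-coding genes), the maximum lay at bases -6.0 and -10.0 in RPC1, just before the gene, and at bases 76.5 and 84.0 in RPC4, just before and in the T run. The difference was -88.2 bp (SE 6.6, adjusted p = 0.0334). In the tRNA-Ser (AGA) gene on chromosome 13 (22032783 to 22032864, likewise outside them), it lay at bases 23.0 and 32.0 in RPC1 and at bases 129.5 and 143.5 in RPC4, well past the gene (-109.0 bp, SE 8.7, adjusted p = 0.036).

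At the genes with the highest coverage the maxima were closer together than in the genes above, which were chosen for their large shifts. The centroids lay in the same direction. Over the oriented stretches the maxima were not closer at high coverage. The median difference per stretch was -12.5 bp at a coverage of 5 to 20, -24.0 bp at 20 to 100 and -36.2 bp above 100. The tRNA-Ala (AGC) gene on chromosome 5 (31190888 to 31190960, with Agbl5 starting at a distance of 107 bp) had its maximum at bases 41.0 and 31.0 in RPC1 and 55.0 and 56.0 in RPC4. Its upstream ratio was -1.10 and -1.12 in RPC1 and -1.77 and -1.80 in RPC4 (difference 0.68, SE 0.16, adjusted p = 0.000318). The tRNA-His (GTG) gene on chromosome 2 (122203704 to 122203775) had its maximum at bases 62.5 and -9.0 in RPC1, far apart between replicates, and at bases 89.0 and 99 in RPC4. No run of 4 T follows within 20 bases in its sequence above, and the first comes 30 bp after the gene. Its centroid was at -1.3 and 6.5 bp in RPC1 and at 29.7 and 41.3 bp in RPC4 (-32.9 bp, SE 10, adjusted p = 0.00598).

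In the tRNA-Ser (GCT) gene on chromosome 2 (118872486 to 118872567, with Casc5 starting at a distance of 288 bp), the maximum lay at bases -6.0 and 29.5 in RPC1 and 36 and 44.0 in RPC4, and the centroids differed by -30.9 bp (SE 10, adjusted p = 0.00905). The tRNA-Leu (AAG) gene on chromosome 14 (51683558 to 51683639) had maxima at bases 17 and 43.0 in RPC1 and 59.0 and 88.0 in RPC4, with a centroid difference of -29.9 bp (SE 10, adjusted p = 0.0103). Among stretches above 400 bp, the highest coverage was at a space of 404 bp on chromosome 11 (58115679 to 58116082), in which a single tRNA-Glu (CTC) gene of 72 bp was identified at the downstream end. The maxima lay at -158.5 and -158.5 bp from the middle in RPC1 and at -152.5 and -149.5 bp in RPC4, far upstream of that gene, so its flank ratios do not describe the gene. The next stretch, on the same chromosome with tRNA-Ser (GCT) followed by tRNA-Thr (AGT) on the minus strand (68876246 to 68876625), had 0.47 and 0.45 in RPC1 and -0.27 and -0.41 in RPC4 (0.80, SE 0.17, adjusted p = 2.58e-05).

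Other tRNA genes had large called flank differences. Upstream, the tRNA-Cys (GCA) gene on chromosome 17 (71948611 to 71948682) had ratios of 0.21 and 0.19 in RPC1 and -0.81 and -1.58 in RPC4 (1.40, SE 0.36, adjusted p = 0.000642). The tRNA-Pro (AGG) gene on chromosome 3 (51163329 to 51163400) differed by 1.28 (SE 0.40, adjusted p = 0.00545) and a tRNA-Cys (GCA) gene on chromosome 11 (97631143 to 97631214) by 1.31 (SE 0.44, adjusted p = 0.00948). Coverage at the gene on chromosome 11 was only 4.65 and 2.58 in RPC1 and 8.86 and 9.12 in RPC4, and its downstream difference was 1.18 (SE 0.51, adjusted p = 0.108). The tRNA-Thr (CGT) gene on chromosome 13 (21414682 to 21414755) was among the largest on both sides, with 1.26 upstream (SE 0.44, adjusted p = 0.0122) and -1.12 downstream (SE 0.33, adjusted p = 0.0465), at a coverage of 4.24 and 2.61 in RPC1 and 7.97 and 7.98 in RPC4.

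The largest called downstream difference was that of the tRNA-Val (CAC) gene on chromosome 13 (22118417 to 22118489), with ratios of -2.52 and -2.87 in RPC1 and -1.91 and -0.86 in RPC4 (-1.31, SE 0.35, adjusted p = 0.0414). The tRNA-Pro (CGG) gene on chromosome 11 (68853887 to 68853958) came after the tRNA-Thr (CGT) gene on chromosome 13 with -1.10 (SE 0.27, adjusted p = 0.0414), then the tRNA-Asn (GTT) gene at 97563763 to 97563836 with -1.04 (SE 0.27, adjusted p = 0.0414) and the tRNA-Ser (CGA) gene at 68924421 to 68924502 with -1.03 (SE 0.30, adjusted p = 0.0465), both on the same chromosome. In 3 of the 4 genes for tRNA-Val, tRNA-Pro, tRNA-Asn and tRNA-Ser, RPC4 replicate 2 lay more than 0.5 above RPC4 replicate 1. The fit without 5S rRNA genes called 0 of 227 downstream flanks (smallest adjusted p 0.0867 in limma). None of these downstream calls remained in it, nor did that of the tRNA-Thr (CGT) gene.

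The shift followed the direction of transcription on both strands. The median centroid difference was -21.5 bp over 115 genes on the plus strand and -27.3 bp over 162 on the minus strand, each counted in the gene's own direction, with the centroid upstream in RPC1 in 112 and 161 of them. The minus strand set includes the 50 5S rRNA genes, which share reads and had a median of -30.1 bp. It was of similar size at all depths, at -26.5 bp for a mean coverage of 5 to 20 (57 stretches), -23.7 bp for 20 to 100 (141) and -27.5 bp above 100 (79). In stretches with less than 10% of bases at fractional coverage the difference of the medians was -25.4 bp over 142 stretches. In stretches with no other within 1000 bp it was -28.1 bp (164), and in the others -24.2 bp (113). Among the 41 stretches within 1000 bp of the start of a protein-coding gene, the upstream flank was higher in RPC1 in 41 and called in 31. Among the 236 further away it was higher in 228 and called in 142. The median upstream difference per stretch was 0.62 in the near set and 0.63 in the other, and a difference between the sets was not tested.

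By amino acid, single tRNA genes formed 20 lists of 5 to 17 genes. The upstream medians of both RPC1 libraries were above those of both RPC4 libraries in 20 of 20 lists. The downstream medians did not overlap in 19 of 20, the exception being the 6 tRNA-Trp genes with -1.67 and -1.96 in RPC1 and -1.96 and -1.50 in RPC4. The centroids did not overlap in 19 of 20, the exception being the 7 tRNA-Cys genes. The smallest median centroid difference was that of tRNA-Lys (-12.7 bp) and the largest that of tRNA-Thr (-28.6 bp). Over all 277 stretches it was -25.4 bp.

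Genes with a long variable arm (tRNA-Leu and tRNA-Ser, 29 genes) had centroids at -9.1 and -21.2 bp in RPC1 and 12.7 and 19.5 bp in RPC4. The 13 genes with a possible intron had centroids at -9.7 and -17.6 bp in RPC1 and 10.8 and 22.6 bp in RPC4, upstream in RPC1 in 13 of 13. Single tRNA genes were also split by the distance from the gene end to the first run of 4 T, the signal at which Pol III stops. Where that run began within 5 bp (48 genes), the downstream medians were -1.24 and -1.34 in RPC1 and -0.99 and -0.69 in RPC4. Where it began 6 to 20 bp away (136 genes), they were -1.23 and -1.34 in RPC1 and -0.91 and -0.66 in RPC4. Where it lay further off or none was found (21 genes), they were -0.93 and -0.91 in RPC1 and -0.59 and -0.38 in RPC4. The difference between the subunits was -0.45, -0.50 and -0.43 in the 3 sets, and a dependence of either value on the distance was not tested.

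The 5S rRNA genes are type 1 genes, whose promoter is also internal and needs the factor TFIIIA. Their 50 stretches lie in 1 repeat on chromosome 8, on the minus strand, and hold 13 different gene sequences, of which 1 occurs 25 times. At least 63.2% of the bases of each carried fractional coverage, so they share reads and are not 50 independent measurements. Upstream medians were -1.23 and -1.26 in RPC1 and -1.65 and -2.45 in RPC4, and downstream medians -1.63 and -1.84 in RPC1 and -1.15 and -1.04 in RPC4. The upstream flank was higher in RPC1 in 50 of 50 (36 called) and the downstream flank lower in 50 of 50 (38 called). Over all 277 oriented stretches, these among them, the shares called were 62.5% upstream and 23.8% downstream. The mean profile of the 40 genes of 119 bp was highest at bases 56 and 50 in RPC1 and 65 and 65 in RPC4.

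At type 3 genes, with their promoter upstream, the centroid lay upstream in RPC1 in 10 of 11 stretches, of which 6 were called, against 62.5% called over all 277 oriented stretches. The 7SK gene on chromosome 9 (78023110 to 78023440, minus strand), whose RNA binds and inhibits the elongation factor P-TEFb, had 2 maxima in each library, one at the gene start and one inside the gene. The first was 215.0 and 264.0 high in scaled coverage in RPC1, against 169.0 and 151.0 in RPC4. The second was 179.0 and 182.0 high in RPC1, against 218.0 and 219.0 in RPC4. The first maximum was thus 1.2 and 1.45 times as high as the second in RPC1 and 0.775 and 0.687 times as high in RPC4. The highest point therefore lay at -169.0 and -170.0 bp from the middle in RPC1 and at 70 and 72.0 bp in RPC4 (-240.5 bp, SE 5.7, adjusted p = 0.00325). The upstream ratio was -0.27 and -0.13 in RPC1 and -0.80 and -0.99 in RPC4 (0.69, SE 0.19, adjusted p = 0.00157), and the downstream ratio -4.33 and -5.33 in RPC1 and -4.02 and -3.02 in RPC4 (-1.31, SE 0.43, adjusted p = 0.0582). Fractional coverage was found at 33.8% of the bases of this stretch, so part of its reads may be shared with other copies.

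The gene of RNase MRP RNA on chromosome 4 (43505660 to 43505930), the RNA of an enzyme that processes ribosomal RNA, had upstream ratios of -0.84 and -0.60 in RPC1 and -1.62 and -1.33 in RPC4 (0.75, SE 0.19, adjusted p = 0.000565). Its downstream ratios overlapped (adjusted p = 0.569). The gene in the place of RNase P RNA, the RNA of the enzyme that trims tRNA 5′ ends, lies by Parp2 on chromosome 14 (51427123 to 51427447). Its upstream ratio was -0.40 and -0.66 in RPC1 and -1.60 and -1.41 in RPC4 (0.97, SE 0.43, adjusted p = 0.0413), at a coverage of 8.03 and 7.99 in RPC1 and 15.2 and 11.8 in RPC4. For U6atac on chromosome 2 (27395325 to 27395450), an RNA of the minor spliceosome, upstream ratios were -1.52 and -1.58 in RPC1 and -2.18 and -1.85 in RPC4 (0.47, SE 0.17, adjusted p = 0.0182), and the maxima lay within 3.0 bp of each other.

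The 5 U6 genes, which code for an RNA of the major spliceosome, did not behave alike. At the neighbouring pair on chromosome 12, the gene at 53704775 to 53704881 had downstream ratios of -1.27 and -1.17 in RPC1 and -0.51 and -0.34 in RPC4 (-0.80, SE 0.20, adjusted p = 0.0414). The gene at 53705477 to 53705578 had downstream ratios of -1.09 and -1.67 in RPC1 and -0.41 and -0.33 in RPC4 (-1.01, SE 0.22, adjusted p = 0.0414). Neither downstream call remained in the fit without 5S rRNA genes. The U6 genes on chromosome 9 (62981090 to 62981196) and at 79371940 to 79372046 on chromosome 10 had no called flank, with downstream differences of -1.10 and -0.52. Their centroids lay upstream in RPC1, by -36.9 bp (SE 10, limma adjusted p = 0.00219) and -18.8 bp (SE 10, adjusted p = 0.0859). At the pair on chromosome 12 the centroids were called upstream in RPC1, by -38.7 and -38.0 bp. At 79448251 to 79448357 on chromosome 10 the centroid lay downstream in RPC1, at 37.3 and 23.8 bp, against 5.2 and -4.9 bp in RPC4 (30.4 bp, SE 10, adjusted p = 0.00943). This was the only oriented stretch called in that direction by the centroid. Its coverage was 7.73 and 7.30 in RPC1 and 10.4 and 11.7 in RPC4. Coverage was lower still at the U6 gene on chromosome 9, at 6.02 and 4.33 in RPC1 and 10.2 and 9.57 in RPC4. At each U6 gene at least 26.8% of the bases were fractional. By the maximum no U6 gene was called. The differences were 43.2 bp on chromosome 9, -36.0 and 84.5 bp on chromosome 10, and -0.3 and -70.0 bp on chromosome 12.

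The 2 Y RNA genes on chromosome 6 code for RNAs bound by the Ro protein. Their flanks were not called. The one at 47731623 to 47731724 had centroids at 18.5 and 8.9 bp in RPC1 and 24 and 31.5 bp in RPC4, and the one at 47738068 to 47738179 at -46.4 and -45.0 bp in RPC1 and -45.9 and -15.2 bp in RPC4. The 2 genes of 7SL, the RNA of the signal recognition particle, lie on chromosome 12 by Rps29 (70260298 to 70260551) and by Nemf (70462167 to 70462478). Downstream ratios were -2.23 and -2.48 in RPC1 and -1.63 and -1.09 in RPC4 by Rps29 (-0.99, SE 0.26, adjusted p = 0.0414), and -2.31 and -2.51 in RPC1 and -1.59 and -1.35 in RPC4 by Nemf (-0.93, SE 0.21, adjusted p = 0.0414). Neither downstream call remained in the fit without 5S rRNA genes. Upstream differences were 0.51 and 0.58, both called. At least 35.7% of the bases of both stretches were fractional, and reads of the 2 near-identical genes can be divided between them.

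Stretches with several genes were examined by the direction of each gene, after the values had been seen. Both flanks together, relative to the space between them, had a median log2 ratio of -1.0 and -1.05 in RPC1 and -1.13 and -1.09 in RPC4 over the 334 stretches. Limma called 23 of 334 stretches higher in RPC1 (6.89%) and 5 lower (1.5%). All 7 tested stretches with a converging pair of tRNA genes were among those called higher, with differences of 0.70 to 1.01. In a converging pair the upstream side of each gene is an outer flank. The 1 diverging pair, and the 2 stretches that start with a diverging pair, were among those called lower, with differences of -1.01, -0.75 and -0.75. In a diverging pair both upstream sides lie between the genes.

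On chromosome 2, the converging genes tRNA-Ala (CGC) and, opposite, tRNA-Gly (GCC) (57034489 to 57034875) had outer flanks of -0.17 and -0.21 in RPC1 and -0.96 and -1.43 in RPC4 (1.01, SE 0.18, adjusted p = 0.00085). The pair of tRNA-Lys (TTT) genes on chromosome 1 (134930539 to 134930976) differed by 0.96 (SE 0.14, adjusted p = 0.000248), the tRNA-Leu (TAG) and tRNA-Gln (CTG) pair on chromosome 11 (68937743 to 68938180) by 0.93 (SE 0.15, adjusted p = 0.000546) and the tRNA-Pro (TGG) and tRNA-Pro (AGG) pair on chromosome 7 (105963925 to 105964257) by 0.92 (SE 0.17, adjusted p = 0.00152). The diverging pair of tRNA-Phe (GAA) and tRNA-Asn (GTT) on chromosome 10 (79711709 to 79711977) had flanks of -2.12 and -1.96 in RPC1 and -1.19 and -0.88 in RPC4 (-1.01, SE 0.11, adjusted p = 8.92e-06). RPC1 was highest between these genes, at base 303 of the stretch in replicate 1 and equally at bases 281 and 298 in replicate 2, whereas RPC4 was highest at bases 394 and 404, in the tRNA-Asn gene.

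The remaining stretches called lower were an unmatched pair on chromosome 6, at 128788924 to 128789196 (-0.61, SE 0.16, adjusted p = 0.0249) and 128793076 to 128793430 (-1.14, SE 0.19, adjusted p = 0.000546), in which no gene was identified. The centroid was also measured in a window of each gene and 75 bp on both sides, in the gene's own direction. It was upstream in RPC1 in 38 of 38 genes, without overlap of the libraries in 35. These genes lay in the 17 stretches with several genes and a mean coverage of at least 5. The differences ran from -26.4 to -4.8 bp with a median of -14.9 bp, and the 22 genes on the plus strand (-15.0 bp) and the 16 on the minus strand (-14.9 bp) were alike. This window is narrower than a stretch, so these values are not comparable with those of single genes. Genes of such stretches with a lower mean coverage were not counted, and their differences went in either direction (-48.3 to 9.7 bp).

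**Figure D4:**
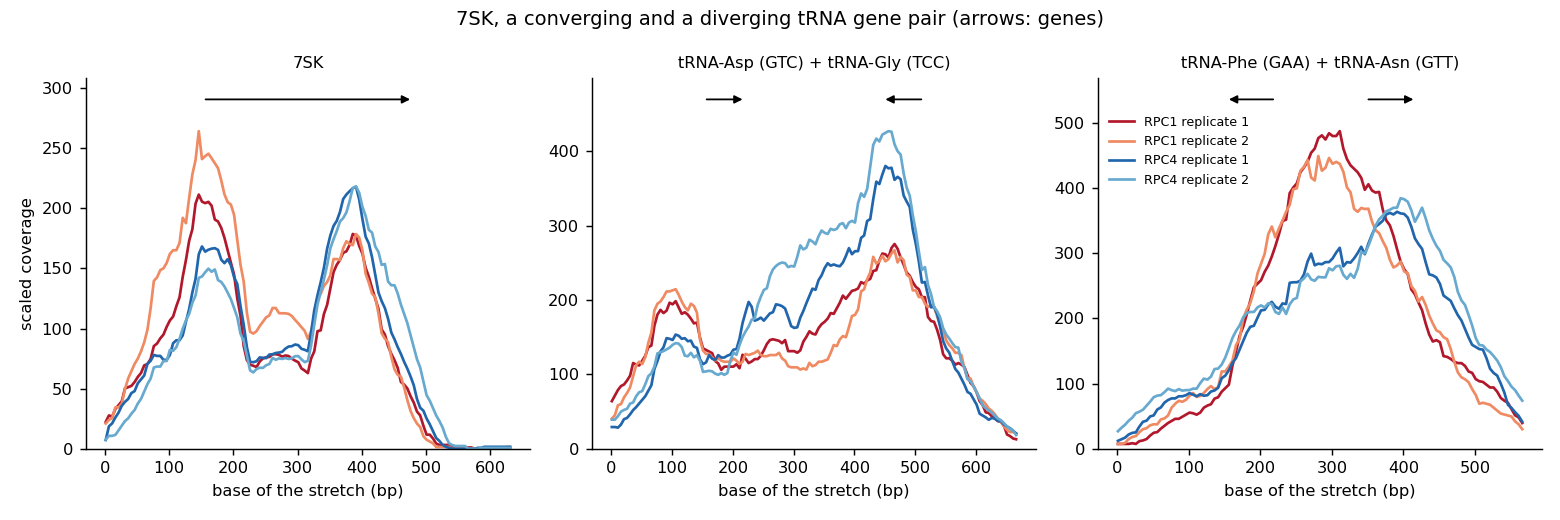
Scaled coverage (y axis) by base of the stretch (x axis) in the 4 libraries at 7SK, at the converging pair tRNA-Asp (GTC) and tRNA-Gly (TCC) and at the diverging pair tRNA-Phe (GAA) and tRNA-Asn (GTT); arrows are genes in their direction. RPC1 is highest at the start of 7SK (215.0 and 264.0, against 169.0 and 151.0 in RPC4) and between the diverging genes (489.0 and 449.0, against 370.0 and 386.0 for the maximum of RPC4), and the maximum in the tRNA-Gly gene of the converging pair is 275.0 and 273.0 in RPC1, against 381.0 and 429.0 in RPC4.

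The 1 stretch whose maximum was called downstream in RPC1 holds 2 genes on the minus strand, tRNA-Thr (TGT) and then tRNA-Pro (AGG), on chromosome 14 (51684489 to 51684915). RPC1 was highest at the second of them and RPC4 at the first (309.0 bp, SE 6.3, adjusted p = 0.00325). The maxima at the 2 genes were of similar height, 0.814 and 0.897 times as high at the first as at the second in RPC1 and 1.09 and 1.28 times in RPC4. The centroid of the whole stretch differed by -3.4 bp (SE 10, adjusted p = 0.769), and within the windows of each gene RPC1 lay upstream in both (-15.6 bp and -10.5 bp). Stretches without a known strand had shifts in either direction along the chromosome. The largest were 198.0 bp at an unmatched stretch on chromosome 6 (128713887 to 128714556, SE 5.8, adjusted p = 0.00405) and -111.5 bp at another (128788436 to 128788587, SE 7.2, adjusted p = 0.0247). The others called were the diverging pair on chromosome 10 (-102.8 bp, adjusted p = 0.0374), the tRNA-Lys pair on chromosome 1 (-65.0 bp, adjusted p = 0.0374) and a stretch of tRNA-Arg (TCT) and 2 tRNA-Val (TAC) genes on chromosome 19 (-64.2 bp, adjusted p = 0.0374).

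Few stretches were called different in level. The log2 scaled coverage per stretch correlated at 0.98 between RPC1 replicates and 0.99 between RPC4 replicates across 478 stretches, which are not independent. The median absolute difference between RPC1 and RPC4, each the mean of 2 libraries, was 0.21. Limma called 23 of 478 stretches higher in RPC1 (4.81%) and 24 lower (5.02%), with absolute differences of 0.28 to 1.04. With coverage anchored on the 25% of stretches with the lowest coverage, the median of all stretches moved to -0.23 and the calls were 0 higher (7 at an unadjusted p under 0.05) and 5 lower. Levels are relative to the total of each library. A lower level in RPC1 than in RPC4 therefore measures neither how many cells carry polymerase on the gene nor how much each cell carries.

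**Figure D5:**
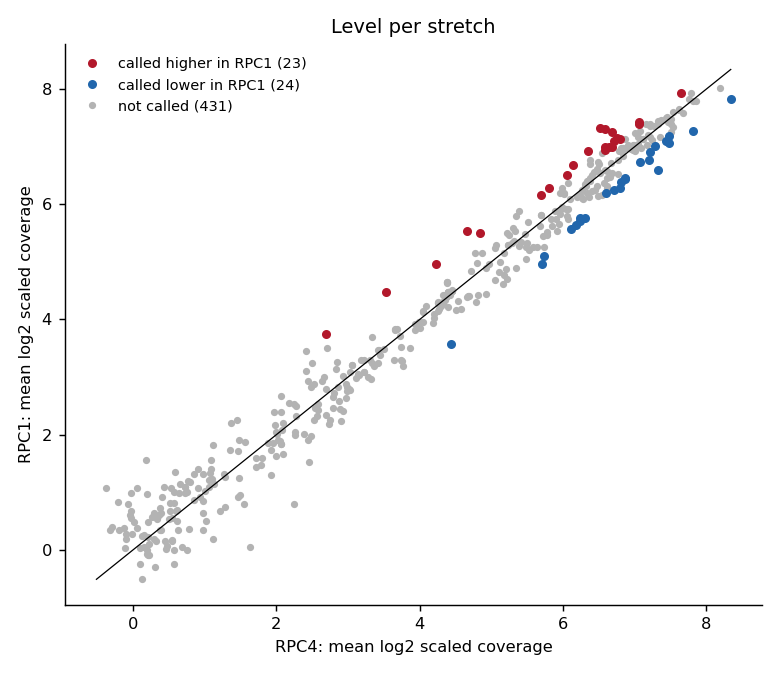
Mean log2 scaled coverage of 478 stretches in RPC4 (x axis) and RPC1 (y axis), each point the mean of 2 libraries; the line marks equal levels. The 23 stretches called higher in RPC1 and the 24 called lower lie close to the line, at absolute differences of 0.28 to 1.04.

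The tRNA-Ala list was singled out after its values were seen. Of its 19 genes 6 were called lower in RPC1, against 24 of all 478 stretches (5.02%). The median of these genes was -0.25 against 0.01 over all stretches. Under median-of-ratios scaling their median was -0.24 against 0.02, and under the anchored scaling -0.50 against -0.23, with 4 called lower in both. Over all 478 stretches these scalings called 9 and 5 lower. The tRNA-Ala (AGC) gene on chromosome 13 at 21351637 to 21351708 had log2 levels of 3.69 and 3.45 in RPC1 and 4.47 and 4.42 in RPC4 (-0.87, SE 0.23, adjusted p = 0.0316). The one at 23523281 to 23523353 had 6.61 and 6.58 in RPC1 and 7.35 and 7.31 in RPC4 (-0.74, SE 0.08, adjusted p = 9.03e-05). The tRNA-Ala (AGC) gene on chromosome 19 (3576263 to 3576335) differed by -0.74 (SE 0.17, adjusted p = 0.0204) and the one on chromosome 5 described above by -0.52 (SE 0.05, adjusted p = 5.38e-05). Outside that list, differences of this size were called at the tRNA-Leu (TAA) gene on chromosome 19 (12085576 to 12085658, -0.63, SE 0.18, adjusted p = 0.0392), which turned to 0.13 (adjusted p = 0.69) when merged with its neighbour at 119 bp, and at the tRNA-Cys (GCA) gene on chromosome 11 (97658386 to 97658457, -0.54, SE 0.14, adjusted p = 0.0316). U6atac, at -0.44 (SE 0.09, adjusted p = 0.0109), was the type 3 gene called lower.

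Among those higher in RPC1, the tRNA-Asn (GTT) gene on chromosome 11 at 97563763 to 97563836 had log2 levels of 7.39 and 7.24 in RPC1 and 6.53 and 6.51 in RPC4 (0.80, SE 0.09, adjusted p = 9.03e-05). The Y RNA gene at 47738068 to 47738179 had 5.58 and 5.49 in RPC1 and 5.03 and 4.30 in RPC4 (0.87, SE 0.23, adjusted p = 0.0316). The tRNA-Pro (TGG) gene on chromosome 3 (51162276 to 51162347) differed by 0.73 (SE 0.21, adjusted p = 0.0448), and an unmatched stretch on chromosome 8 (113522107 to 113522266) and one on chromosome 19 (4820900 to 4821061) by 1.04 and 0.95. The 7SL gene by Nemf differed by 0.40 (SE 0.12, adjusted p = 0.0453) and the U6 gene at 53704775 to 53704881 by 0.47 (SE 0.14, adjusted p = 0.0472). Of the 16 tRNA-Glu genes 3 were called higher, against 4.81% of all 478 stretches. Their median was 0.24, which became 0.00 under the anchored scaling. The median of the 50 5S rRNA genes was 0.02. Among the other amino acid lists the medians ran from -0.44 for tRNA-Gln (2 of 13 called lower) to 0.27 for tRNA-Asp (2 of 13 called higher). The shares over all stretches were 5.02% lower and 4.81% higher. By the centroid RPC1 lay upstream both at the tRNA-Asn gene (-36.1 bp) and at the tRNA-Ala gene on chromosome 5 (-28.3 bp). At the tRNA-Ala gene on chromosome 13 at 21351637 to 21351708, also called lower in level, it lay downstream (8.8 bp, SE 10, limma adjusted p = 0.417). Of the 12 tRNA-Ala genes tested for the centroid, 10 had it upstream in RPC1 and 2 downstream, against 273 and 4 of all 277 oriented stretches.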

How the data were processed

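Liver ChIP-seq libraries for RPC1, RPC4 and input (2 each) were used. The deposited signal is coverage, in reads per base, over each stretch. It is not scaled for depth, lone reads add 1 over 76 bp, and fractional values occur where reads appear to have been divided among repeated genes. The build is mm9 per the submitters' processing notes. Not given in the sources used here: aligner and filters. Chromatin fragments were about 250 bp and libraries had 15 PCR cycles, per the labels' protocols.

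Coverage was scaled by each file's total over the 532 stretches. Level was log2 of mean scaled coverage plus 0.354, over the 478 stretches left by a filter at the 0.1 quantile. Flank ratios and positions needed a mean coverage of at least 5. Fits used limma 3.58.1 in R 4.3.3 on the 4 libraries, with Benjamini-Hochberg adjustment at 0.05 over the whole table of each measure. The maximum was fitted over 334 stretches, those of unknown strand in chromosome direction. Gene names and strands were taken from mm9 GENCODE annotation and, for tRNA genes, from a search for cloverleaf folds with at least 17 of 21 base pairs (18 in free placement), so tRNA names are predictions. Depth per library stands with the results.

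Named stretches were up to 5 with the largest called difference in each direction of each measure without overlap of the libraries, the 2 with the highest coverage per length class, and 7SK, RNase MRP RNA, RNase P RNA, U6, U6atac, Y RNA, 7SL and 5S rRNA genes. Some named genes and their sequences are not reported here. Other stretches that are named were chosen after their values were seen. The members and lists were chosen with earlier results of these data known. Fits were tested on simulated data, where the maximum made no calls at any simulated shift. Alternatives were other scalings, pseudocounts, filters and flanks, leaving out each library, and a replicate block. Background, where subtracted, was each library's own median over the 25% of stretches with the lowest coverage, not input. One more stretch, listed in 5 files, was not used.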

Additional observations from a re-analysis of the deposited data

How the results depend on the processing

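The upstream and downstream differences kept their direction under every alternative run for them, and the counts of calls did not. Upstream calls were 94 with under 10% fractional bases, 102 without neighbours within 1000 bp, and 38 to 93 with 1 library left out; with a minimum coverage of 2, 1 stretch was called lower and the median difference of the middle class was 0.56. Without neighbours the median for genes of up to 78 bp was 0.67. Downstream calls were 14 with under 10% fractional bases (-0.50 for genes above 100 bp), 0 without 5S rRNA genes (84 at an unadjusted p under 0.05 in limma), and 8 to 108 with 1 library left out, with 1 to 3 called higher.

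For both flanks, calls higher and lower were 15 and 3 with background subtracted, 15 and 2 with under 10% fractional bases, and 14 to 18 and 2 to 5 with 1 library left out; 3 were lower without neighbours. Their class medians moved to 0.06 with a 75 bp flank (up to 78 bp), to 0.15 and 0.15 with under 10% fractional bases (79 to 100 bp and above), and to 0.14 without neighbours (79 to 100 bp).

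The maximum was the least stable. Calls upstream were 173 by the centroid, 3 at a minimum coverage of 2, 2 with under 10% fractional bases, 5 without 5S rRNA genes, and 0 to 0 in either direction with 1 library left out (49 to 94 upstream at an unadjusted p in limma); without neighbours 0 were downstream (2 unadjusted). Genes up to 78 bp differed by -25.3 bp by the centroid, -37.4 bp after smoothing and -39.0 bp at a minimum of 2. Genes of 79 to 100 bp differed by -28.5, -19.0 and -22.9 bp in the same order, by -22.0 bp at a minimum of 20 and by -33.5 bp without neighbours. All stretches together differed by -37.2 bp with under 10% fractional bases and -35.2 bp without 5S rRNA genes. Genes above 100 bp turned to 0.2 bp and 6.6 bp under those settings, and the cause was not tested. The tRNA-Pro and tRNA-Thr stretch on chromosome 14 turned to -3.4 bp by the centroid (adjusted p = 0.769).

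Level calls, higher and lower, were 14 and 9 with median-of-ratios scaling, 0 (7 unadjusted) and 5 with the anchored scaling (median -0.23), 0 and 0 in a fit of all 12 libraries (2 and 0 unadjusted in limma), 14 and 15 with neighbours merged, 9 and 9 without neighbours, 14 and 15 without 5S rRNA genes, and 5 to 20 and 6 to 26 with 1 library left out. Merged with its neighbour, the tRNA-Leu (TAA) gene on chromosome 19 turned to 0.13 (adjusted p = 0.69).

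Replicate numbers were not taken as pairs: deviations of same-numbered libraries correlated at 0.00 (level), 0.07 (upstream), -0.15 (downstream), 0.01 (both flanks) and 0.25 (maximum), with only 2 pairs. With the replicate block limma called 122 upstream flanks, 0 downstream flanks (93 unadjusted), 30 higher and 5 lower for both flanks, 0 maxima (56 upstream and 4 downstream unadjusted) and 4 higher and 4 lower levels. Crossing the numbers gave 150 lower and 1 higher downstream flanks. Among the 57 oriented stretches with coverage of 5 to 20, 20 upstream flanks were called higher, against 173 of all 277 (62.5%). The median upstream difference per stretch was 0.78 in these 57 and 0.62 over all 277. A dependence of the calls on depth was not tested.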
